A study of Mus musculus with 6 samples.

Results

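Expression of 9 heat shock protein and chaperone genes was described in mouse F9 teratocarcinoma cells, an embryonal carcinoma line that differentiates towards endoderm in retinoic acid (RA). The genes were taken by symbol from a table of 25904 genes, and all 9 symbols were found, each on 1 row: Hsp90aa1, Hsp90ab1, Hspa8, Hspa4, Hsph1, Dnajb1, Hspd1, Hspe1 and Hspb1. The set was chosen by measured values of these same libraries: the RA and untreated levels of Hsp90aa1, which were lower with RA in 2 lines and not in the shRxr line. RA values of the 9 genes are therefore a description, with no test. There were 3 lines, each with a short hairpin RNA: shGFP as the control, shCtbp2 against the corepressor Ctbp2, and shRxr against a retinoid X receptor whose gene the labels do not name. Each line grew in medium with charcoal-stripped serum and was left untreated (UT) or exposed for 48 hours to all-trans RA at 1 µM. This gave 6 groups of 1 library each. Whether a line was a clone or a pool is not given in the sources used here.

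Heat shock proteins fold other proteins, hold them in a foldable state or take apart their aggregates. HSP70 proteins such as Hspa8 bind short hydrophobic stretches, J proteins such as Dnajb1 deliver clients and trigger ATP hydrolysis, and the HSP110 relatives Hspa4 and Hsph1 exchange the nucleotide. HSP90 acts later, on near-native clients such as kinases and steroid receptors, while Hspd1 and Hspe1 form the folding chamber of mitochondria and Hspb1 is a small heat shock protein that holds unfolded proteins without ATP. Many of these genes are targets of the heat shock factor HSF1, and embryonal carcinoma cells are known for high chaperone levels without any heat stress.

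Between 9955808 (shRxr_RA) and 13322506 (shGFP_RA) reads were counted in genes per library, and levels are given as normalised reads, the reads of a gene per 10000000 counted in genes. Intervals are 95% counting intervals (exact Poisson for a level, exact binomial for a fold) and hold counting error alone, without the variation of cultures. Ctbp2 stood at 210.1 and 55.4 normalised reads in shCtbp2_UT and shCtbp2_RA against 1811 and 701.1 in shGFP, and the shRxr line had 73.7 and 82.4 of Rxra where shGFP had 520.3 and 805.4. Of 13 tested endoderm markers 11 rose with RA over the lines and 0 fell, and of 10 markers of undifferentiated F9 cells 6 fell and 0 rose (limma, adjusted p under 0.05). For RA in limma the lines, knock-downs included, stood in as replicates of the treatment. A change that differs between lines adds to the spread, which makes a call less likely. The summed level of the undifferentiated markers was 57764 to 58563 normalised reads in untreated libraries and 23056, 49269 and 41883 in shGFP_RA, shCtbp2_RA and shRxr_RA. In shCtbp2 the sum hides opposite directions. Pou5f1 went there from 18524 to 26185 and Dppa5a from 4940 to 8488. All other markers of this list were lower with RA in shCtbp2, 5 of them at least 2-fold (8 in shGFP). The summed level of the endoderm markers went from 14567 to 18183 untreated to 44183, 31920 and 24640. In bulk RNA, fewer cells of a type and less RNA per cell cannot be told apart. Of fibroblast markers Postn was at 0 in all libraries and Dcn and Col3a1 were at 0 to 2.01, with Fbln1 and Pdgfrb raised and Thy1 lowered, and the summed level of blood markers was 72.8 to 133.7. Libraries also differed in base composition: the deviation of a gene from its mean over the libraries followed its GC content with a Spearman rho of 0.65 in shCtbp2_RA and 0.25 in shGFP_RA, and of -0.44 to -0.40 in shRxr_RA and the untreated libraries.

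All 9 genes were well expressed, and all passed the minimum mean of 20 normalised reads for testing. Untreated, they differed little between lines: the highest untreated library was between 1.05 times (Hsp90ab1, Hspa8) and 1.3 times (Hspb1) the lowest. In RA the lines lay 1.19 times (Hsp90ab1) to 2.99 times (Hsp90aa1) apart. Together the 9 genes took 1.13%, 1.11% and 1.16% of the reads in shGFP_UT, shCtbp2_UT and shRxr_UT, and 0.958%, 0.986% and 1.01% in the RA libraries of these lines. Without Hsp90ab1, which gave most of these reads, the remaining 8 took 0.401%, 0.372% and 0.394% untreated and 0.304%, 0.251% and 0.394% in RA. The share without Hsp90ab1 was thus lower in RA in shGFP and shCtbp2 and the same to 3 digits in shRxr. These 8 include Hsp90aa1, by whose levels the set was chosen. Its own share went from 0.1238% to 0.0505% in shGFP, from 0.1216% to 0.0423% in shCtbp2 and from 0.1106% to 0.1265% in shRxr. The difference between lines in the summed share therefore in part restates that choice, and nothing is read from it about the set.

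**Figure D1:**
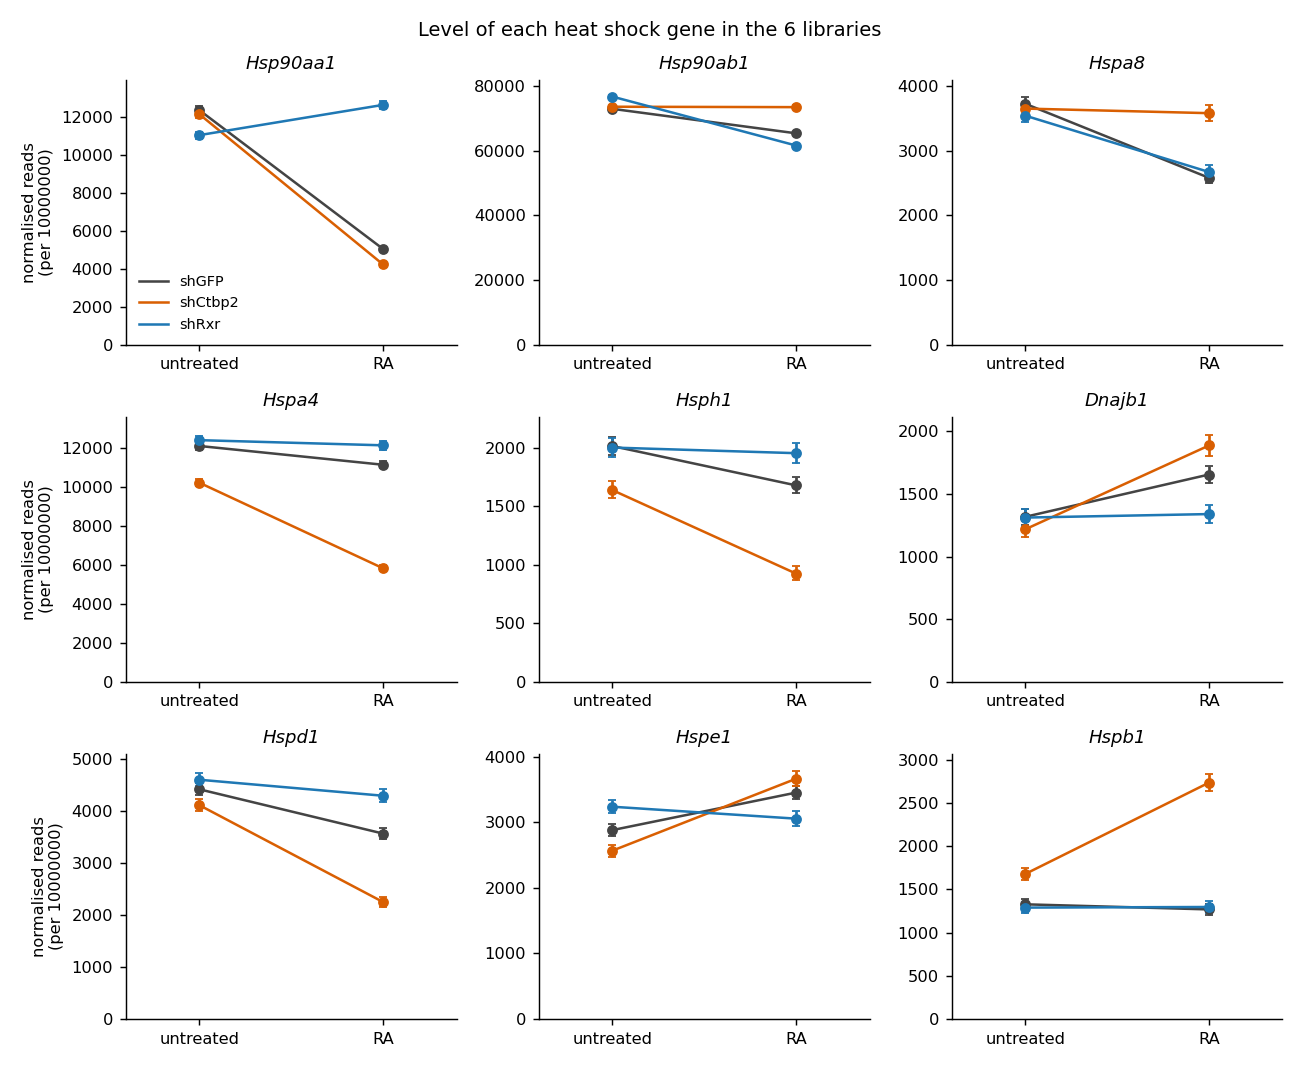
Level of each gene in the 6 libraries, in normalised reads per 10000000 on a linear axis from 0, untreated at the left and RA at the right of each panel. Lines join the 2 libraries of a line, and bars are 95% counting intervals. Hsp90aa1 drops to 5048 and 4231 in shGFP and shCtbp2 but stands at 12654 in shRxr, and Hspb1 reaches 2736 only in shCtbp2_RA.

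Hsp90aa1 encodes the stress-inducible HSP90 alpha (ENSMUSG00000021270, mm9 chromosome 12, 111928815 to 111940938). It stood at 12377 normalised reads in shGFP_UT, 12164 in shCtbp2_UT and 11057 in shRxr_UT. The RA libraries of these lines gave 5048, 4231 and 12654. The untreated libraries and shRxr_RA were thus all high and the RA libraries of shGFP and shCtbp2 low, with no value between 5048 and 11057. The order from the top was shRxr_RA, shGFP_UT, shCtbp2_UT, shRxr_UT, shGFP_RA and shCtbp2_RA, and among the highest 3 each counting interval overlapped that of its neighbour (12434 to 12877, 12182 to 12574 and 11968 to 12362). With RA the level was 2.45-fold lower in shGFP (2.38 to 2.52) and 2.88-fold lower in shCtbp2 (2.78 to 2.98), and 1.14-fold higher in shRxr (1.12 to 1.17). On the scale log2(value + 10) these were changes of -1.29, -1.52 and 0.19. In RA the shRxr library was 2.51-fold above that of shGFP (2.43 to 2.58). After a correction of each library for GC content and length of the genes the changes were -1.19, -0.84 and 0.06. The difference in shCtbp2 was therefore smaller after the correction, and now smaller than that in shGFP. A library bias in base composition and an RA response that follows GC content cannot be told apart here.

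Hsp90ab1, the constitutive HSP90 beta (ENSMUSG00000023944, chromosome 17, 45704724 to 45710220), ranked 3 of all genes in the table by its mean of 70645 normalised reads. Untreated it was at 72975 (shGFP), 73619 (shCtbp2) and 76765 (shRxr), and in RA at 65398, 73491 and 61619. Its 6 libraries spanned a range of 1.25-fold, the narrowest of the 9 genes. With RA it was 1.12-fold lower in shGFP (1.11 to 1.13) and 1.25-fold lower in shRxr (1.23 to 1.26), while in shCtbp2 the counting interval spanned no change. Per kilobase of transcript the mean was 28034 for Hsp90ab1 and 2922 for Hsp90aa1, so most HSP90 transcripts came from the beta gene in these libraries. The alpha gene gave 14.5% of the reads of the pair in shGFP_UT, 14.2% in shCtbp2_UT and 12.6% in shRxr_UT. In RA its share was 7.17%, 5.44% and 17.0%.

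**Figure D2:**
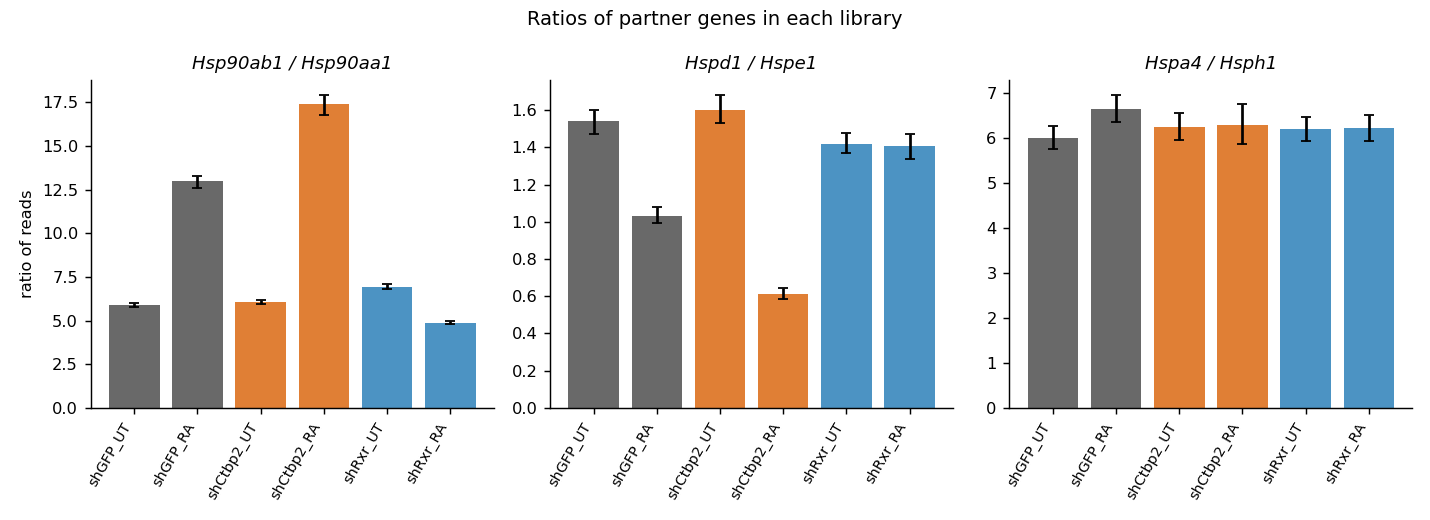
Ratio of reads of 3 pairs of partner genes in each library, on linear axes from 0, with 95% counting intervals and no correction for gene length, so that bars compare libraries within a pair. Hsp90ab1 over Hsp90aa1 is 13.0 and 17.4 in RA in shGFP and shCtbp2 and 4.87 to 6.94 elsewhere, Hspd1 over Hspe1 is 1.03 and 0.614 against 1.41 to 1.60, and Hspa4 over Hsph1 lies between 6 and 6.63.

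The HSP70 gene Hspa8 encodes the constitutive HSC70, which also strips clathrin coats from vesicles (ENSMUSG00000015656, chromosome 9, 40609067 to 40613283). Untreated it was at 3727, 3652 and 3543 normalised reads in shGFP, shCtbp2 and shRxr. In RA it was at 2581, 3581 and 2671, so that shCtbp2_RA stood with the untreated libraries. RA went with a 1.44-fold lower level in shGFP (1.38 to 1.51) and a 1.33-fold lower level in shRxr (1.26 to 1.39), and in shCtbp2 the interval spanned no change. This pattern differs from that of Hsp90aa1, for which shRxr was the line without a lower level. After the GC and length correction the log2 change in shCtbp2 was 0.39 in place of -0.03.

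The HSP110 genes Hspa4 and Hsph1 kept step with each other. Hspa4 (ENSMUSG00000020361, chromosome 11, 53073316 to 53113959) was at 12087, 10204 and 12385 normalised reads untreated in shGFP, shCtbp2 and shRxr, and at 11124, 5817 and 12120 in RA. Hsph1 (ENSMUSG00000029657, chromosome 5, 150416862 to 150438951) was at 2014, 1638 and 2001 untreated and at 1678, 924.4 and 1953 in RA. In both genes shCtbp2_RA was the lowest library and shCtbp2_UT the next lowest. With RA in shCtbp2 Hspa4 was 1.75-fold lower (1.70 to 1.81) and Hsph1 1.77-fold lower (1.64 to 1.92), against 1.09-fold (1.06 to 1.11) and 1.20-fold (1.13 to 1.27) in shGFP. In shRxr both intervals spanned no change. Reads of Hspa4 per read of Hsph1 ranged from 6 (5.75 to 6.26, shGFP_UT) to 6.63 (6.34 to 6.94, shGFP_RA). After the GC and length correction the shCtbp2 log2 changes were -0.26 and -0.33 in place of -0.81 and -0.82.

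Hsph1 is a known HSF1 target, and its promoter is shown because it holds the heat shock motif. Promoters came from RefSeq (GRCm38.p6, 250 bases before to 50 after a start), which matched 6 of the 9 genes with 9 windows. HSF1 binds alternating GAA and TTC units, and the motifs searched were GAANNTTC and TTCNNGAA, each its own reverse complement, so that both strands were covered. Either was found in 15.1% of all 32851 windows in the table. By gene, it was in windows of 4 of the 6 matched genes, Hsph1, Hspd1, Hspe1 and Hspb1, and not in those of Hspa4 and Dnajb1. The matches of Hspd1 and Hspe1 are the same stretch, and another window of Hspd1 had none. A count by gene is not the same measure as a share of windows, so the 2 are not compared. A match is a description of the letters and not a site. The Hsph1 stretch lies at chr5:149636342-149636389 on the minus strand, at positions -53 to -6 from the start, with the motif in capitals.
Hsph1: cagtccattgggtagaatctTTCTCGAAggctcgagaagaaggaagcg
A longer run, of 3 alternating units, lay at positions 37 to 49 after that start and is not in the stretch shown. Such a longer run was held by 0.603% of windows. Direct repeats DR5 and DR2 of the RA receptor half-site were in 0.0974% and 0.268% of windows and in none of the 9, and TATAAA was in 13.6% and in none of the 9.

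Dnajb1, the HSP40 partner of cytosolic HSP70 (ENSMUSG00000005483, chromosome 8, 86132074 to 86135801), went the other way. It was at 1318, 1218 and 1312 normalised reads untreated in shGFP, shCtbp2 and shRxr, and at 1656, 1888 and 1340 in RA. The RA libraries of shGFP and shCtbp2 were above all others, while shRxr_RA stood with the untreated libraries. With RA the level was 1.26-fold higher in shGFP (1.18 to 1.34) and 1.55-fold higher in shCtbp2 (1.45 to 1.66), and in shRxr the interval spanned no change. The GC and length correction took the log2 changes from 0.33 and 0.63 to 0.07 and 0.21.

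The mitochondrial chaperonin genes Hspd1 (HSP60) and Hspe1 (HSP10) lie head to head and moved apart. Hspd1 spans chromosome 1 from 55134679 to 55145087 (ENSMUSG00000025980) and Hspe1 from 55144976 to 55148151 (ENSMUSG00000073676), an overlap of 112 bases in mm9. Hspd1 was at 4418, 4113 and 4602 normalised reads untreated in shGFP, shCtbp2 and shRxr, and at 3566, 2249 and 4294 in RA. Hspe1 was at 2878, 2564 and 3235 untreated and at 3450, 3661 and 3053 in RA. Hspd1 was thus lowest, and Hspe1 highest, in shCtbp2_RA. With RA Hspd1 was 1.24-fold lower in shGFP (1.19 to 1.29), 1.83-fold lower in shCtbp2 (1.74 to 1.92) and 1.07-fold lower in shRxr (1.03 to 1.12). Hspe1 was 1.20-fold higher in shGFP (1.15 to 1.25), 1.43-fold higher in shCtbp2 (1.361 to 1.498) and 1.06-fold lower in shRxr (1.01 to 1.11). Reads of Hspd1 per read of Hspe1 went from 1.54 (1.47 to 1.60) to 1.03 (0.992 to 1.08) in shGFP and from 1.60 (1.53 to 1.68) to 0.614 (0.583 to 0.647) in shCtbp2. In shRxr the ratio was 1.42 untreated and 1.41 in RA, with overlapping intervals. The GC contents of these 2 transcripts are alike, 46.8% and 45.5%, but their lengths differ, 2423 and 964 bases. After the GC and length correction the shCtbp2 log2 changes were -0.69 for Hspd1 and 0.43 for Hspe1. Whether transcript length bears on the ratio of the pair was not tested.

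The promoter region that Hspd1 and Hspe1 share is shown because the levels of the pair moved apart. On the Hspe1 strand, at chr1:55088039-55088096 and positions -109 to -52 from the Hspe1 start, it holds 3 overlapping matches of the heat shock motif, in capitals.
Hspe1: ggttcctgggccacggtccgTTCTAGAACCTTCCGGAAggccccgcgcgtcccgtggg
The same run lies at positions -144 to -127 from a start of Hspd1 on the other strand. Copies of Hspe1 elsewhere in the genome may share reads with it, and so may copies of the other genes. The 4 Hspe1 pseudogenes in the table, Hspe1-ps2, Hspe1-ps3, Hspe1-ps5 and Hspe1-ps6, had 0 to 3.35 normalised reads. How reads with several matches were counted, and whether the counting used strand, is not given in the sources used here, so the levels of Hspe1 and of the overlap with Hspd1 are uncertain.

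Hspb1, the small heat shock protein HSP25, binds unfolded proteins and actin (ENSMUSG00000004951, chromosome 5, 136363789 to 136365433). It stood at 1327, 1678 and 1289 normalised reads untreated in shGFP, shCtbp2 and shRxr, and at 1268, 2736 and 1296 in RA. Both shCtbp2 libraries were above all 4 others, which lay between 1268 and 1327. Untreated, the shCtbp2 line exceeded shGFP 1.27-fold (1.19 to 1.35), and in RA 2.16-fold (2.03 to 2.29). With RA the level was 1.63-fold higher in shCtbp2 (1.54 to 1.73), and the intervals of the other lines spanned no change. Hspb1 has the highest GC content of the 9 transcripts, 61.7%, and after the GC and length correction its shCtbp2 log2 change with RA was -0.31 in place of 0.70. The direction of that change therefore rests on how base composition is treated. The stretch of its promoter with 2 matches of the heat shock motif, in capitals, lies at chr5:135887782-135887849, at positions -137 to -70 from the start, and is shown for comparison with the run of Hspe1, whose matches overlap.
Hspb1: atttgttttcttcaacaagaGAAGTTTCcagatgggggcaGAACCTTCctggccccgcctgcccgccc

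Side by side, differences past 2-fold with RA were seen for Hsp90aa1 alone. By the counting interval 6 were lower and 2 higher in shGFP, 4 lower and 3 higher in shCtbp2, and 4 lower and 1 higher in shRxr. Hsp90aa1 is among the lower genes in shGFP and shCtbp2 and is the higher gene in shRxr. The share of all genes by this interval was not computed. The median log2 change of the 9 was -0.16, -0.03 and -0.04, against 0.12, 0.07 and 0.09 over all 12332 genes tested. In shGFP 1 of the 9, Hsp90aa1, was at least 1.5-fold lower, as were 14.8% of all genes tested, and none was 1.5-fold higher (24.7% of all). At least 2-fold lower was Hsp90aa1 again, in shGFP (7.07% of all) and in shCtbp2 (19.3% of all). In shCtbp2 Hsp90aa1, Hspa4, Hsph1 and Hspd1 were at least 1.5-fold lower (30.7% of all) and Dnajb1 and Hspb1 at least 1.5-fold higher (30.3% of all). In shRxr none passed 1.5-fold, against 4.32% of all genes lower and 13.7% higher. These counts, medians and shares come from the contrast that chose the set, and nothing is read from them.

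**Figure D3:**
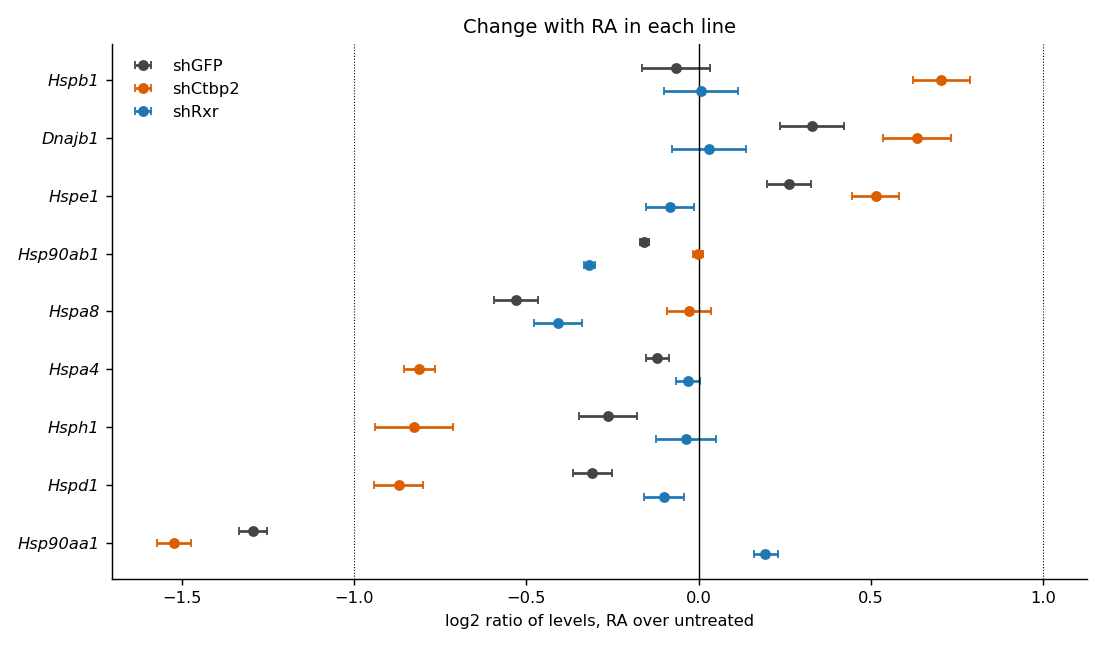
Log2 ratio of the RA to the untreated level of each gene in each line, with 95% counting intervals; dotted lines mark a 2-fold ratio. Hsp90aa1 in shGFP and shCtbp2 (-1.29 and -1.52) are the only points beyond the dotted lines, and the shRxr points lie between -0.41 and 0.19.

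The changes in shCtbp2 were set against the GC content of the transcripts. The 4 genes at least 1.5-fold lower there have a GC content of 43.7% to 47.3%, and Hspb1 and Dnajb1, at 61.7% and 52.7%, have the highest changes. Hspe1 and Hspa8, at 45.5% and 45.9%, had changes of 0.51 and -0.03 there. The correction moved single values by up to 1.01 on the log2 scale (Hspb1 in shCtbp2) and turned the sign of 4 of 27, namely Hspa8 and Hspb1 in shCtbp2 and Dnajb1 and Hspb1 in shRxr. The directions of Hsp90aa1, lower in shGFP and shCtbp2 and higher in shRxr, were the same under 2 other pseudocounts, 2 other scalings and the correction.

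**Figure D4:**
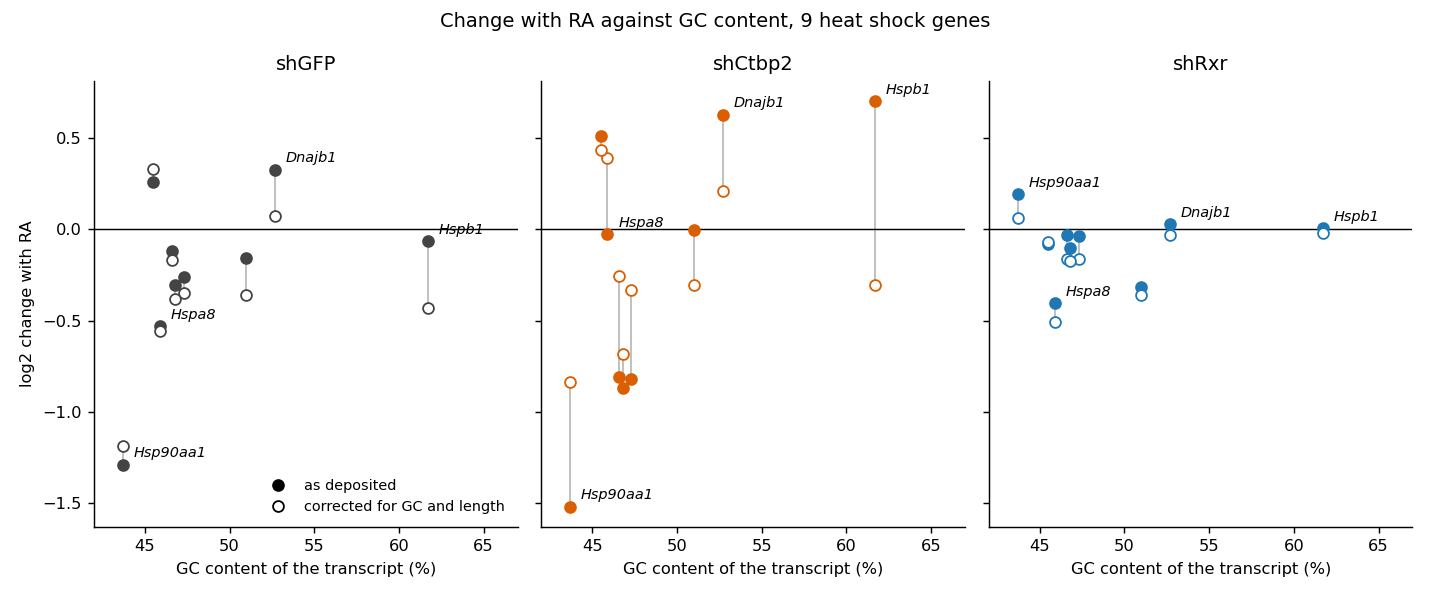
Log2 change with RA of the 9 genes against the GC content of their transcripts in percent, 1 panel per line. Filled points are as deposited, open points are corrected for GC content and length, and grey lines join the values of a gene. The moves are longest in shCtbp2, where Hspb1 goes from 0.70 to -0.31 and Hsp90aa1 from -1.52 to -0.84, and Hsp90aa1 in shGFP moves only from -1.29 to -1.19.

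The knock-down lines were then compared with shGFP over both treatments. The choice of genes used the levels of Hsp90aa1 in all 6 libraries, so that gene has no test here, and the other 8 were tested. In the limma model with line and treatment as terms, the treatments stood in as replicates of a line. The spread behind the p-values, in part drawn from all genes, is how far the lines differ in RA change, not that between cultures. A knock-down difference that is larger at 1 treatment adds to that spread, which makes a call less likely. The hairpin and other differences between cultures cannot be told apart. For shCtbp2 none of the 8 genes passed an adjusted p of 0.05 (0.146% of all genes did), and 1, Hspb1, had an unadjusted p under 0.05. Its log2 difference was 0.72 (SE 0.33, adjusted p 0.553), higher at both treatments. Hspa4 had a log2 difference of -0.59 (SE 0.33, adjusted p 0.658) and Hsph1 of -0.58 (SE 0.33, adjusted p 0.663), each lower at both treatments. With voom on the recovered reads 0 passed as well, and 1 had an unadjusted p under 0.05. Without the shCtbp2_UT library, a fit that leaves 1 library for that line, Hspb1 (1.09, adjusted p 0.0422), Hspa4 (-0.96, adjusted p 0.0441) and Hsph1 (-0.91, adjusted p 0.0497) passed, and genes called overall went from 18 to 1271. Without shCtbp2_RA the differences of these 3 genes were 0.36, -0.22 and -0.24 (adjusted p 1 for each), and genes called overall were 0. After the GC and length correction they were 0.46, -0.27 and -0.27, with adjusted p of 0.335, 0.541 and 0.509.

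For shRxr 0 of the 8 genes passed in limma, 0.00811% of all genes did, and 0 had an unadjusted p under 0.05, with voom too. Their log2 differences ran from -0.16 (Dnajb1) to 0.16 (Hspd1, SE 0.32, adjusted p 1). Hsp90aa1 was 1.12-fold lower than shGFP untreated and 2.51-fold higher in RA, which restates the pattern by which it was chosen (at least 2-fold higher: 3.74% of all genes, from which nothing is read for this gene). Of the other 8 genes none was at least 1.5-fold higher (11.3% of all) or lower (9.87% of all) in shRxr_RA. In shCtbp2_RA Hspb1 was at least 2-fold higher than shGFP (3.18% of all genes, and 13.3% at 1.5-fold). At least 1.5-fold lower in shCtbp2_RA were Hspa4 (1.91-fold, 1.86 to 1.97), Hsph1 (1.82-fold, 1.68 to 1.96) and Hspd1 (1.59-fold, 1.51 to 1.67), as were 33% of all genes. Untreated, none of the 9 was 1.5-fold from shGFP in either line (7.38% of all genes lower and 4.44% higher in shCtbp2, 1.29% and 2.34% in shRxr).

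Genes with a pattern like that of Hsp90aa1 were ranked by Pearson's r over the 6 libraries, over the 7809 genes whose mean was 200 normalised reads or more. The highest were Uba6 (0.999), an enzyme that activates ubiquitin, Lrch2 (0.998), Zfp644 (0.997), the centriolar satellite gene Pcm1 (0.997) and Thoc2 (0.997), of the complex that exports mRNA. Uba6 was at 813.5, 767.6 and 744.1 normalised reads untreated in shGFP, shCtbp2 and shRxr and at 296.5, 256.4 and 841.7 in RA. The points share their libraries, and all 5 transcripts have a GC content of 36.7% to 41.3%. Of the other 8 heat shock genes Hspd1 had an r of 0.872 with Hsp90aa1 (rank 1027 of 7809), Hsph1 of 0.789 (rank 1725) and Hspa4 of 0.73 (rank 2072), so that many genes had a higher r. Hspa8 had 0.215 and Hsp90ab1 0.036, and Hspb1 (-0.58), Hspe1 (-0.821) and Dnajb1 (-0.966, rank 7720) were below 0. Hsp90aa1 was 1 of 660 genes (5.35% of those tested) at least 2-fold lower with RA in both shGFP and shCtbp2. Of these 155 (23.5%) had a change above 0 in shRxr.

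The wider chaperone network was described with 10 lists, 124 genes outside the 9, of which 113 were tested. They were not picked by their RA values, but the lists were written with earlier results known. Over the lines RA raised 6 and lowered 3 (7.96%), against 15.4% of all genes tested (10.8% raised and 4.63% lowered). With the lines as replicates of RA, a gene whose change differs between lines was less likely to be called. For the knock-downs 0 of the 113 passed in limma and in voom, with 5 (shCtbp2) and 0 (shRxr) at an unadjusted p under 0.05 in limma and 7 and 0 in voom. Without shCtbp2_UT 14 passed for shCtbp2. Median log2 changes of the 113 with RA were 0.02 (shGFP), 0.16 (shCtbp2) and 0.01 (shRxr). For RA, 3 of the 113 passed without shGFP_UT, shGFP_RA or both, where 463 to 469 of all 12332 genes did. Without either or both shCtbp2 libraries 4 did, against 757 to 848 of all genes. Without either or both shRxr libraries 22 did (11 raised and 11 lowered), against 3245 to 3253 of all genes. After the GC and length correction 19 passed, 10 raised and 9 lowered, against 1648 raised and 1335 lowered of all 12332 genes.

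The 6 raised genes came from 4 lists. Of all genes tested 10.8% were raised and 4.63% lowered. The single lists here and below are small, and nothing is read from a count within 1 list. Serpinh1, the collagen chaperone of the endoplasmic reticulum, rose most, with a log2 change of 2.37 (SE 0.31, adjusted p 0.000321). It was at 1186, 858.6 and 1471 normalised reads untreated in shGFP, shCtbp2 and shRxr and at 7421, 6829 and 4138 in RA. The other 18 tested chaperones of the endoplasmic reticulum did not pass, among them P4hb (0.60, adjusted p 0.138), Calr (0.57, adjusted p 0.169), Hspa5 (-0.0026, adjusted p 0.996) and Hsp90b1 (-0.82, adjusted p 0.102). Hsp90b1 was at 5631, 5700 and 5039 normalised reads untreated in shGFP, shCtbp2 and shRxr and at 3069, 1774 and 5404 in RA. Like Hsp90aa1, it was lower with RA in shGFP and shCtbp2 and not in shRxr. A gene that did not pass over the lines can thus still differ within a line. Of 8 other HSP70 genes Hspa12b (2.10, adjusted p 0.000728), Hspa12a (1.78, adjusted p 0.0017) and the testis-rich Hspa2 (1.15, adjusted p 0.0179) rose. Hspa12a went from 76.5 to 401.6 normalised reads in shGFP, from 80.2 to 191.0 in shCtbp2 and from 97.1 to 399.8 in shRxr. Of 9 exchange factors and partners of HSP70 the BAG-family gene Bag2 rose (1.36, adjusted p 0.00971), with Bag6 (0.33), St13 (-0.37) and Bag1 (0.45) among those that did not pass.

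Of 19 J protein genes 1 rose and 2 fell (10.8% and 4.63% of all genes tested). Dnajc6, or auxilin, which uncoats clathrin vesicles with Hspa8, fell (log2 change -2.35, SE 0.36, adjusted p 0.000879). It was at 580.7, 833.8 and 539.0 normalised reads untreated in shGFP, shCtbp2 and shRxr and at 72.8, 89.1 and 242.1 in RA. Dnajc21, a J protein of ribosome assembly, fell too (-1.49, SE 0.33, adjusted p 0.00838), and Dnaja4 rose (1.17, adjusted p 0.0259). Among 22 cochaperones of HSP90 Ppid, the cyclophilin 40 gene, fell (-1.12, SE 0.32, adjusted p 0.0311). Its levels were 1281, 1162 and 1045 untreated and 590.7, 283.1 and 866.8 in RA. Fkbp4 (0.43, adjusted p 0.321), Cdc37 (0.50, adjusted p 0.231), Stip1 (-0.08) and Ahsa1 (-0.08) did not pass.

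**Figure D5:**
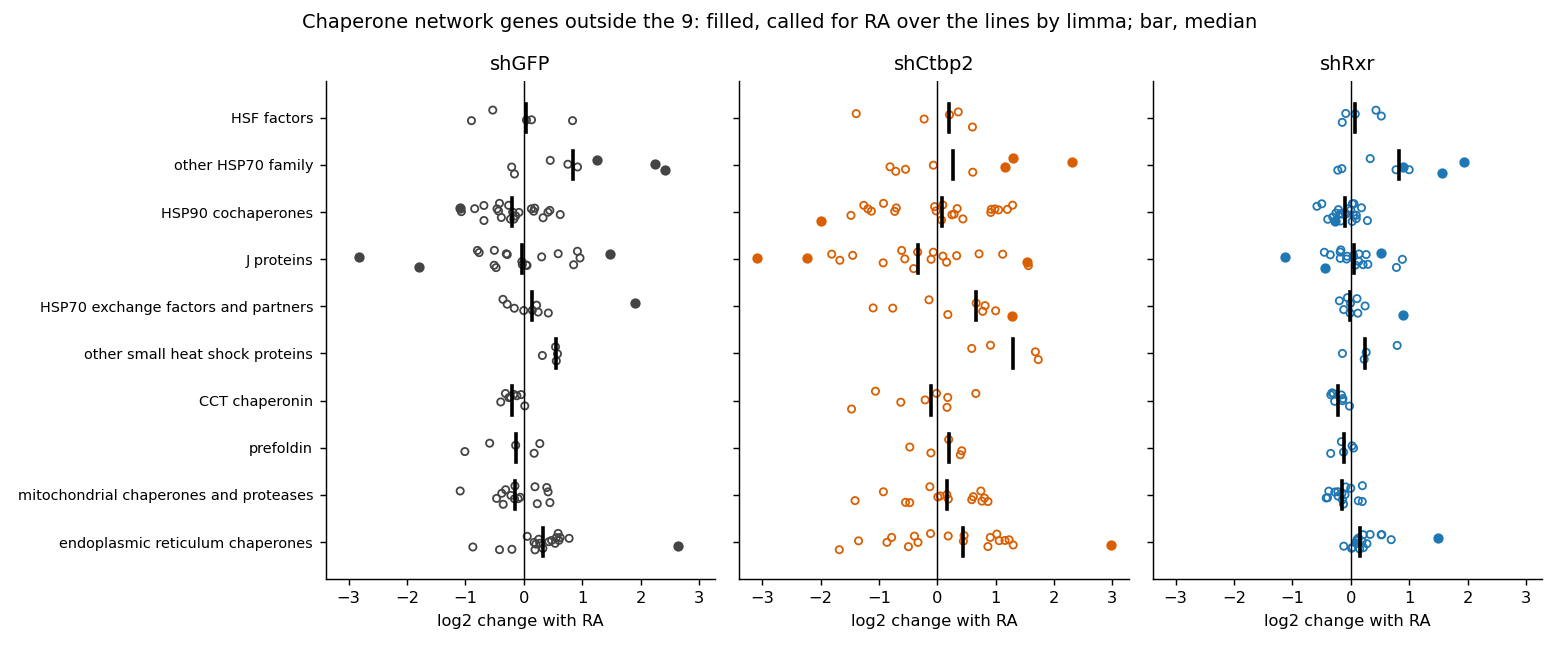
Log2 change with RA of the tested chaperone network genes outside the 9, by list and by line; each point is a gene, filled where limma called it for RA over the lines, and bars are list medians. Filled points are few, 6 raised and 3 lowered, and the spread is widest in shCtbp2 and narrowest in shRxr.

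None of the 8 tested CCT chaperonin genes, 5 prefoldin genes, 15 mitochondrial chaperones and proteases or 4 small heat shock proteins passed in limma or voom. At an unadjusted p under 0.05 in limma there were 0, 0, 1 and 3 of them. Hspa9, the mitochondrial HSP70 (12467 normalised reads on average), had a log2 change of -0.31 (adjusted p 0.442) and the CCT subunit Cct5 of -0.01 (adjusted p 0.975). Median log2 changes of the CCT genes were -0.20, -0.11 and -0.22 in shGFP, shCtbp2 and shRxr, and those of the mitochondrial list -0.15, 0.16 and -0.15. In shCtbp2 2 of the 8 CCT genes, Cct8 (-1.47) and Cct4 (-1.06), were at least 2-fold lower with RA (19.3% of all genes) and 0 at least 2-fold higher (15.1% of all genes). None of 5 tested genes of HSF and HSF-binding proteins (Hsf1, Hsf2, Hsf5, Hsbp1 and Hsf2bp) passed either, with 1 at an unadjusted p under 0.05. Hsf1 was at 508.2, 558.3 and 534.0 normalised reads untreated in shGFP, shCtbp2 and shRxr and at 524.7, 646.3 and 481.1 in RA. Hsf2 was at 452.6, 426.0 and 405.9 untreated and at 310.0, 156.4 and 381.7 in RA, with a log2 change of -0.67 (adjusted p 0.148).

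The most heat-inducible HSP70 genes stayed low in every library. Hspa1b was at 26.5 to 41.8 normalised reads untreated and at 45.5 to 65.3 in RA (log2 0.56, adjusted p 0.212), and Hspa1a, at 1.65 to 22.8, was under the minimum for testing. Of 18 tested HSF1 targets outside the 9 genes 1 passed, Serpinh1, which also stands in the list of the endoplasmic reticulum. Of 18 genes from other stress responses RA raised 5 and lowered 0 (10.8% and 4.63% of all genes): Gadd45b (1.81), the sulfiredoxin gene Srxn1 (1.31), Jun (1.21), Atf3 (0.96, adjusted p 0.0396) and Xbp1 (0.95, adjusted p 0.0318). Asns (0.28), Atf4 (0.22) and Trib3 (0.46), the highest expressed of this list, did not pass.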

How the data were processed

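TopHat 1.4, HTSeq and the build mm9 were used for alignment and counting, per the submitters' processing notes. For the counting mode and annotation release, the sources used here give nothing. The authors deposited log2 values, which unlogged sum to 10000000 per library after 1 is taken off, and 100% of values gave whole reads within 1e-06. Genes with a mean of at least 20 (12332 of 23886 with a read) were tested with limma 3.58.1 (R 4.3.3), a trend fit on log2(value + 10) with line and treatment as terms, 2 residual and 11.2 prior degrees of freedom, and Benjamini-Hochberg adjustment over all genes tested, with a threshold of 0.05. The script was tested on simulated data. Other steps used Python 3.11.15, pandas 2.3.3, numpy 2.4.6 and scipy 1.17.1. GC content and length came from GENCODE M21 transcripts with the longest coding sequence, found for 98.39% of genes tested, and the correction was a loess fit per library. Lists held genes of HSF and HSF-binding proteins, other HSP70, HSP90 cochaperones, J proteins, exchange factors, small heat shock proteins, CCT and prefoldin. Further lists held mitochondrial and endoplasmic reticulum chaperones, HSF1 targets, other stress genes, and markers of F9 stem cells, endoderm, fibroblasts and blood. A list for RNA quality was used too, in which Malat1 and Neat1 fell with RA and 8 of 10 genes did not pass. The 9 genes and all lists were chosen with earlier results of these data known. Genes named were the 9, the 5 closest to Hsp90aa1 by Pearson's r, the targets, and the genes called in the chaperone, HSF1 target and other stress lists. A plan to name the 2 to 4 genes with the highest mean of each list was followed only in part. The other genes named were chosen after their values were seen. Alternatives were other pseudocounts, filters, scalings, voom on recovered reads, the GC and length correction and leaving out libraries or lines. Promoters of Hsp90aa1, Hsp90ab1 and Hspa8 were not used here.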

Additional observations from a re-analysis of the deposited data

Results flagged for a closer look

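In the 4 results below every library pair of a line moved one way and that of the other line the opposite way, with 1 pair per line, and the difference was not tested. The RA log2 change of Hsp90aa1 in shRxr exceeded that in shGFP by 1.49 and that in shCtbp2 by 1.71, which includes the contrast by which the genes were chosen. The RA log2 change of Hspe1 in shRxr minus that in shGFP was -0.344, and minus that in shCtbp2 it was -0.595. After the GC and length correction the shRxr minus shGFP difference was 1.25 for Hsp90aa1 and -0.403 for Hspe1, and the shRxr minus shCtbp2 difference was 0.899 and -0.504.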

How the results depend on the processing

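Genes called for RA (1898) numbered 812 with a mean of at least 100 and 2983 after the GC and length correction, and 463 (without shGFP_UT) to 3253 (without shRxr_RA) with libraries or lines left out. The share raised, 69.9%, was 63.6% with equal upper quartiles, 57.7% with median-of-ratios scaling and 55.2% after the correction. Calls for shCtbp2 (18) numbered 4 with a pseudocount of 1, 0 with no filter (1762 at an unadjusted p under 0.05), 4 with a mean of at least 100, 99 with equal upper quartiles, 69 with median-of-ratios scaling, 4 with voom, 9 after the correction, and 0 (without shCtbp2_RA, with 743 unadjusted) to 1271 (without shCtbp2_UT) in leave-one-out fits. Calls for shRxr (1) were 0 with no filter (646 unadjusted) and 0 to 25 (without shRxr_UT) in leave-one-out fits. The 9 chaperone network calls numbered 5 with no filter, 4 with a mean of at least 100, 19 after the correction and 3 to 22 in leave-one-out fits. Of the 8 heat shock genes other than Hsp90aa1, 0 were called for either knock-down with other pseudocounts, filters or scalings, voom or the correction. The same held with a whole line left out. Without shCtbp2_UT, which leaves 1 library for that line, the shCtbp2 log2 differences of Hspb1, Hspa4 and Hsph1 were 1.09, -0.96 and -0.91. Hspb1 with RA in shCtbp2 went from 0.70 to -0.308 after the correction, and the shRxr minus shGFP log2 difference of Hsp90aa1 over both treatments, 0.58 and a description only, was -0.22 (without shRxr_RA) to 1.38 (without shRxr_UT). Of the RA values of the 9 genes under alternatives 79 moved by less than their counting interval, 55 moved by more and 1 that had passed 1.5-fold changed sign. Equal upper quartiles moved the median RA change of all genes from 0.07 to 0.17 in shCtbp2, and median-of-ratios from 0.12 to 0.01 in shGFP. The cause of these differences was not tested. A planned negative binomial test on counts was not run, and voom on the reads recovered from the log2 values was run in its place. The labels carry no replicate numbers, so no block by replicate was fitted, while line as a term of the model already sets the RA library of a line against its untreated library. No group has a second culture, so the spread between cultures is not measured.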
